A study of Mus musculus with 23 samples.

Results

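The genes described here are Hectd2, Rnf111, Mindy2 and Pcgf5, 4 genes of the ubiquitin system that had a listed alternative splicing event in mouse skeletal muscle. They were chosen by name, because events of these genes stood in the authors' list of called events, and every entry of each gene was taken. They account for 4 of the 221 genes of the list, for 5 of its 252 distinct events and for 9 of its 265 entries, since an event can be entered in more than 1 comparison. Hectd2, Rnf111 and Mindy2 fit the description of ubiquitin ligase or deubiquitinase genes. Pcgf5 encodes a partner of a ligase and not a ligase or deubiquitinase itself.

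The muscle came from 23 male mice of 2 strains. NZO/HIBomDife mice, which become obese and diabetic on a polygenic background, were kept on caloric restriction (CR, 3 samples), on intermittent fasting (IF, 5 samples) or fed ad libitum (AL, 5 samples). Mice of the C57BL/6J inbred strain, healthy in this study, were exercised (EX, 5 samples) or sedentary (SED, 5 samples). The labels do not name the muscle, the age of the mice, or the length and regime of each intervention. The labels name no engineered allele in any group. CR and IF were both set against the same AL mice, and EX was set against SED.

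Each entry gives an inclusion level for the treated and for the control group, called PSI (percent spliced in) and running from 0 to 1. These are the authors' own values, 1 for each group, so no standard deviation between mice can be given and the read depth is unknown. The evidence that a level differs is the probability in the authors' deposited table, which is not a p-value. No event in the authors' deposited table has a difference smaller than 0.2 in size or a probability below 0.9. These same values chose the genes, so the levels below are a description and no test was made of them. An event that is not entered in a comparison was not called there, which does not show that its level was unchanged. The list holds no expression levels, so the tissue could not be checked by marker levels; 1 of 7 muscle marker genes, Neb, had a listed event.

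Ubiquitin is a small protein that is joined to other proteins through an activating enzyme, a conjugating enzyme and a ligase, and deubiquitinases take it off again. Ligases with a HECT domain carry the ubiquitin on their own cysteine before passing it on, whereas RING ligases bring the conjugating enzyme and the target together. In skeletal muscle, ubiquitin ligases and the proteasome are known for their part in protein breakdown during fasting and disuse. Hectd2 encodes a HECT-type ligase. Rnf111, also called Arkadia, encodes a RING ligase that recognises SUMO-modified proteins and enhances TGF-beta signalling by directing the breakdown of its inhibitors. Mindy2 encodes a deubiquitinase of the MINDY family, which prefers chains linked through lysine 48, the chains that mark proteins for the proteasome. Pcgf5 encodes a Polycomb group RING finger protein that, as part of a variant of Polycomb repressive complex 1, stimulates the ubiquitination of histone H2A by its ligase partner.

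The 5 events were of 2 types. Skipped exons were listed in Rnf111 (chromosome 9, 70502940 to 70503002, minus strand, 63 nucleotides), in Pcgf5 (chromosome 19, 36450564 to 36450623, plus strand, 60 nucleotides) and in Hectd2 (chromosome 19, 36597077 to 36597186, plus strand, 110 nucleotides). Alternative 3' splice sites were listed in Mindy2 (chromosome 9, 70605287 to 70605289, minus strand) and in Hectd2 (chromosome 19, 36601429 to 36601431, plus strand), and each of these covers 3 nucleotides. By the usual definition of that type, inclusion of the stretch means use of the acceptor that gives the longer exon. Positions are mm10 coordinates, taken to count from 1 and to include both ends. The sequences of these stretches and whether they are coding or untranslated were not analysed here.

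The events lay in different parts of their genes, as set against the gene spans of the RefSeq annotation of GRCm38.p6, the assembly also known as mm10. The Rnf111 exon began 838 nucleotides from the annotated 5' end of a gene of 78417 nucleotides, which is 1.07% of the way along it. In Mindy2 the stretch lay 89.3% of the way along the gene, 6273 nucleotides from its 3' end. The Pcgf5 exon lay 90.8% of the way along the largest of the 4 genes (112642 nucleotides). In Hectd2 the skipped exon lay at 64.1% and the 3' splice site at 70.6% of a span of 67010 nucleotides, with 4242 nucleotides between them and the exon upstream. No event overlapped another annotated gene in that table.

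**Figure D1:**
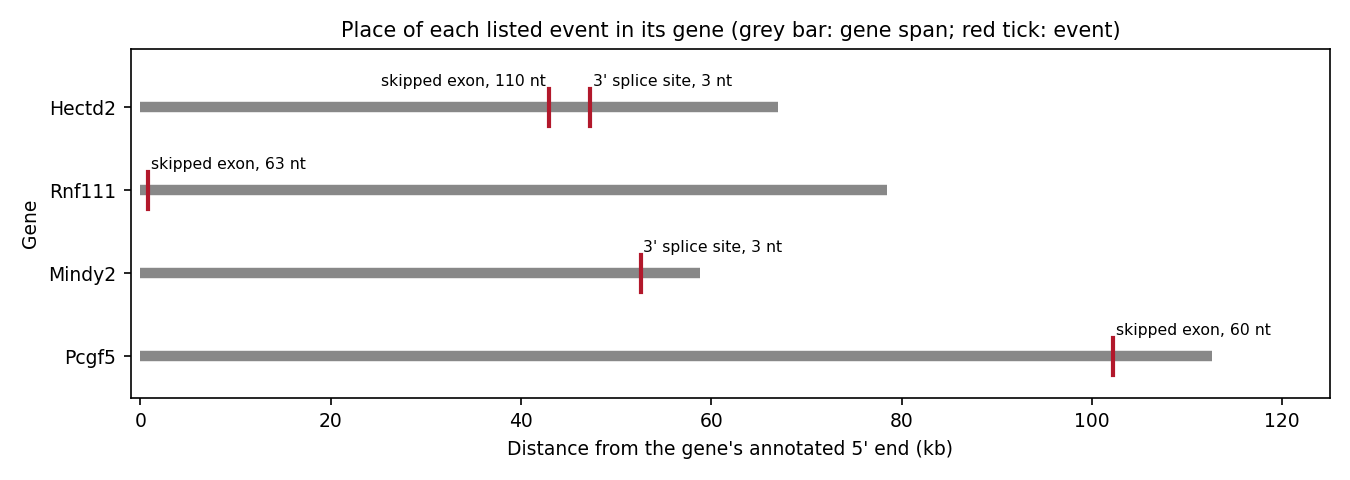
Place of the 5 listed events in their genes, by distance in kilobases from the annotated 5' end (horizontal axis). Grey bars are the RefSeq gene spans and red ticks the events; the Rnf111 exon is close to the 5' end, at 1.07% of its gene, and the other 4 events lie between 64.1% and 90.8% of theirs.

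Hectd2 was the 1 gene of the 4 with entries in all 3 comparisons, and its 2 events ran in opposite directions under caloric restriction. The 3-nucleotide stretch at its 3' splice site had a level of 0.158 in CR muscle and 0.710 in AL muscle, a difference of -0.55 (CR minus AL). Its 110-nucleotide exon had a level of 0.907 in CR muscle and 0.668 in AL muscle, a difference of 0.24. Put as the share without the stretch or exon (1 minus PSI), 0.842 in CR against 0.290 in AL lacked the 3 nucleotides, and 0.0932 in CR against 0.332 in AL lacked the exon. The probabilities in the authors' deposited table were 0.996 for the splice site and 0.902 for the exon, the second just above the limit of 0.9.

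Under intermittent fasting the 3' splice site of Hectd2 was listed again, and the exon was not listed. The stretch had a level of 0.236 in IF muscle and 0.713 in AL muscle, a difference of -0.48 (IF minus AL). Its probability was 0.919 and its confidence class was 2 in the authors' deposited table, against class 1 for the other 8 entries of the 4 genes; what the classes mean is not stated.

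After exercise the exon of Hectd2 was listed, and the 3' splice site was not. The exon had a level of 0.905 in EX muscle and 0.655 in SED muscle, a difference of 0.25 (EX minus SED), with a probability of 0.906 in the authors' deposited table. This entry comes from the other strain with its own controls. The treated levels of the exon differed by -0.00168 (EX minus CR), and the control levels by -0.0128 (SED minus AL). From control levels of 0.655 and 0.668 the exon could have been listed in either direction in both comparisons.

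The Rnf111 exon had lower inclusion under both diets. Its level was 0.223 in CR muscle and 0.712 in AL muscle, a difference of -0.49 (CR minus AL). In the comparison with fasting the level was 0.251 in IF muscle and 0.707 in AL muscle, a difference of -0.46 (IF minus AL). By these levels, inclusion of the exon was the minor form under each diet and the major form in AL. The share without the exon (1 minus PSI) was 0.777 in CR and 0.749 in IF. In AL it was 0.288 and 0.293 in the 2 comparisons. Probabilities were 0.983 for CR and 0.956 for IF in the authors' deposited table. No event of Rnf111 was listed after exercise.

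The Mindy2 stretch was listed under caloric restriction alone. Its level was 0.294 in CR muscle and 0.947 in AL muscle, a difference of -0.65 (CR minus AL), with a probability of 1 as rounded in the authors' deposited table. By absolute difference it stood 1st of the 114 events of this comparison. The share without the 3 nucleotides (1 minus PSI) was 0.706 in CR against 0.0533 in AL. With so high an AL level the event could be listed as lower only, since a rise of 0.2 would pass the top of the scale. Of the 5 events it was the only one so limited.

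The Pcgf5 exon also had lower inclusion under both diets, with smaller differences than the Rnf111 exon. Its level was 0.363 in CR muscle and 0.697 in AL muscle, a difference of -0.33 (CR minus AL). In the comparison with fasting it was 0.372 in IF muscle and 0.696 in AL muscle, a difference of -0.32 (IF minus AL). The probabilities of these entries were 0.976 for CR and 0.955 for IF in the authors' deposited table. No Pcgf5 event was listed after exercise.

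**Figure D2:**
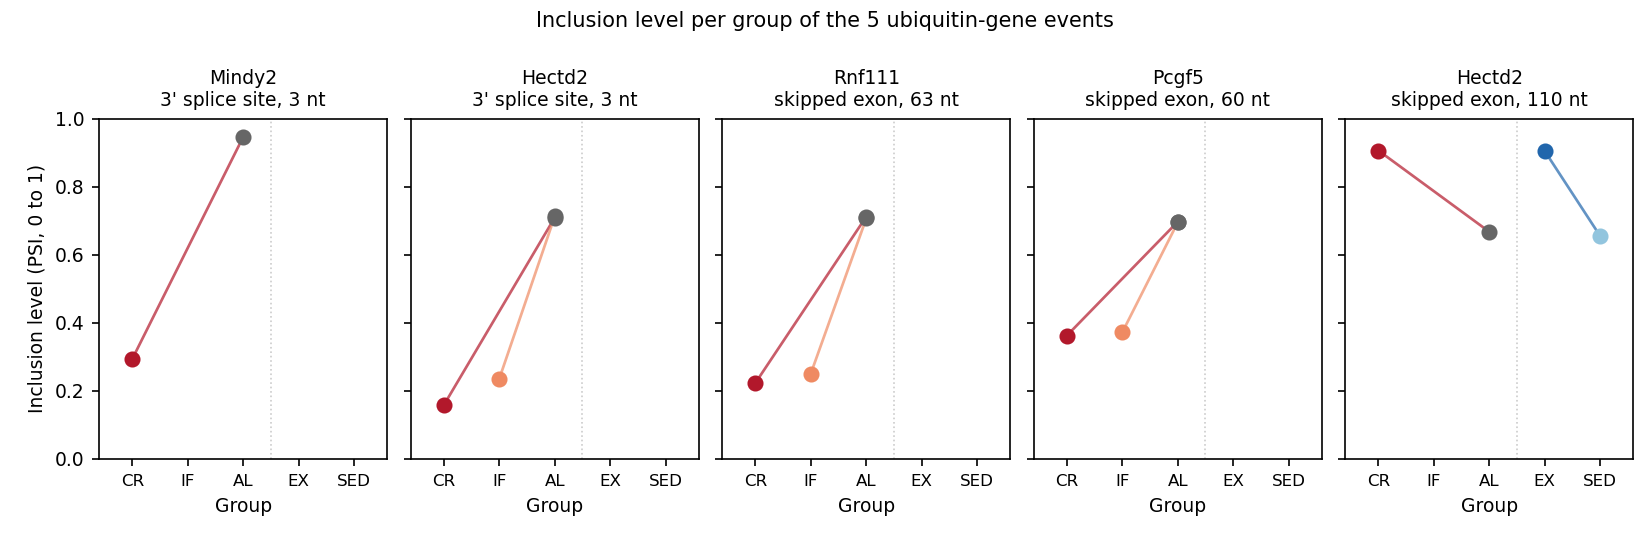
Inclusion level (PSI, from 0 to 1) of each of the 5 events in the groups for which it was listed; each point is the authors' single value for a group and carries no error, and lines join a treated group to its control. Points are missing where an event was not listed. The first 4 panels have treated levels between 0.158 and 0.372, below AL levels between 0.696 and 0.947, and the Hectd2 exon has CR and EX levels of 0.907 and 0.905, above AL and SED.

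In all, 3 of the 5 events were entered at the same position and type for both diets, and a further one for CR and EX. For the diet pair the treated levels were close: IF minus CR was 0.0775 for the Hectd2 splice site, 0.0276 for the Rnf111 exon and 0.00974 for the Pcgf5 exon. The AL level of the same event differed between the comparisons by 0.00349, 0.0053 and 0.00194 for those events in the same order. IF was not tested against CR, and both were set against the same AL mice, so their matching directions are not independent of each other. In AL muscle the events of Hectd2, Rnf111 and Pcgf5 had levels between 0.668 and 0.713, whereas Mindy2 stood apart at 0.947.

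Within the list of the CR comparison, 4 of the 5 entries of these genes had lower inclusion, where 47.4% of all 114 listed events were lower in CR than in AL. The Mindy2 entry could be listed as lower only. All 3 entries of the IF comparison were lower, where 60.8% of the 79 listed events were. The single entry of the EX comparison was higher, as were 48.6% of its 72 events. The number of events that the authors tested and did not call is not known, so these shares are of called events, and nothing is read from them because the same contrasts chose the genes. By absolute difference the CR entries ranked 1 (Mindy2), 10 (Hectd2 splice site), 19 (Rnf111), 66 (Pcgf5) and 98 (Hectd2 exon) of 114. In the IF list the ranks were 17 for the Hectd2 splice site, 23 for Rnf111 and 54 for Pcgf5 of 79, and the Hectd2 exon ranked 59 of 72 in the EX list. By probability the CR ranks were 1 (Mindy2, tied), 7 (Hectd2 splice site), 19 (Rnf111), 25 (Pcgf5) and 113 (Hectd2 exon). The IF ranks by probability were 23 for Rnf111, 25 for Pcgf5 and 53 for the Hectd2 splice site. The Hectd2 exon ranked 64 by probability in EX. The median absolute difference of the entries was 0.489 in CR and 0.456 in IF, beside 0.352 and 0.355 over all listed events of those comparisons. In EX the single entry, at 0.25, lay below the median of 0.315 over all listed events. These ranks and medians rest on few entries and on the values that chose the genes, so nothing is read from them.

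**Figure D3:**
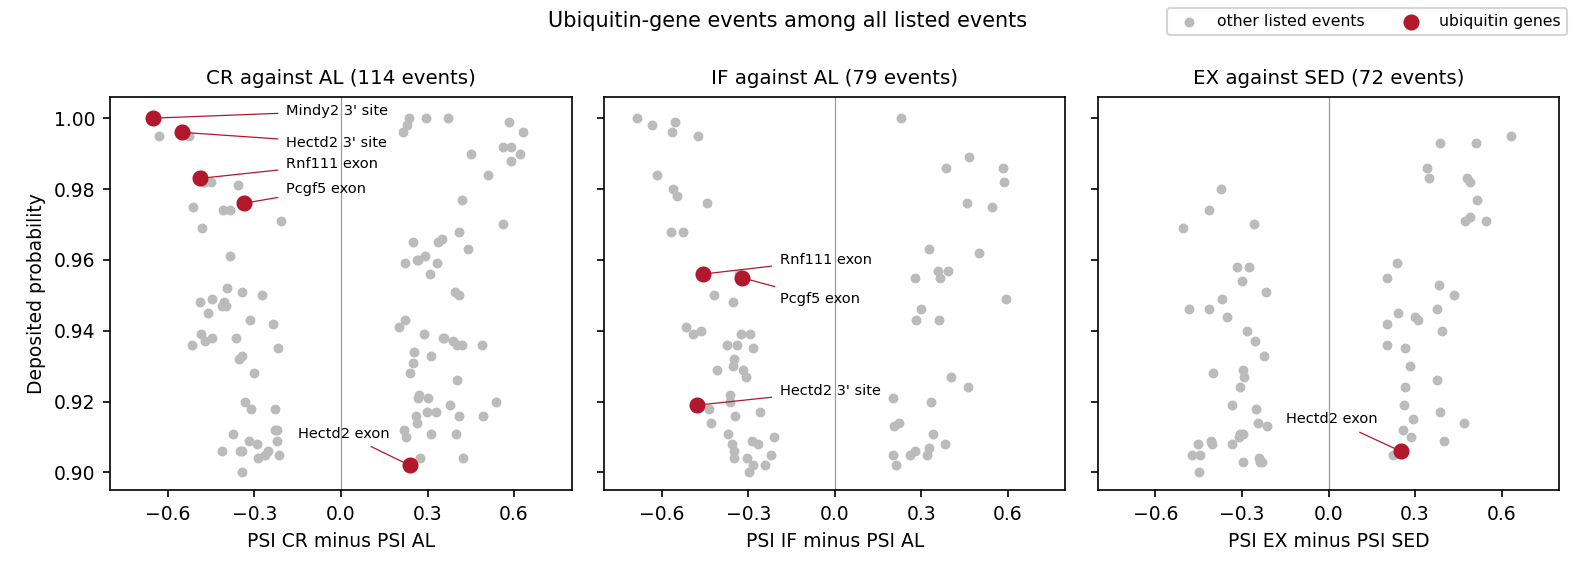
Difference in inclusion level, treated minus control (horizontal axis), and probability in the authors' deposited table (vertical axis) for every listed event of the 3 comparisons; red points are the entries of Hectd2, Rnf111, Mindy2 and Pcgf5 and grey points all others. The red points for CR range from -0.65 to 0.24, and no point lies within 0.2 of 0 because smaller differences were not listed.

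The length of the events is a property that the choice of genes did not use. Of the 5 events 4 have a length divisible by 3, as do 133 of all 252 distinct events (52.8%). The Hectd2 exon, at 110 nucleotides, is the exception; for a coding exon, skipping such a length would shift the reading frame. Among skipped exons, 2 of the 3 listed here are divisible by 3, beside 74 of the 126 in the whole list (58.7%). Both 3' splice site events have a length of 3 nucleotides, which is the length of 23 of the 43 distinct 3' splice site events in the list (53.5%), so this property is shared with many genes outside the ubiquitin system. In the CR list the other 10 events of that kind were higher in 7 cases and lower in 3, while those of Mindy2 and Hectd2 were both lower. In the IF list 4 of the other 6 were higher and 2 were lower, and that of Hectd2 was lower. With 5 events no difference from the rest of the list can be shown.

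A wider list of 524 genes of the ubiquitin system, drawn from general knowledge with earlier results of these data known, held 17 genes with a listed event, the 4 described here and 13 others. By class, events were listed for 9 of 185 RING or U-box ligases, 2 of 26 HECT ligases and 2 of 131 cullin complex genes. They were also listed for 3 of 85 genes classed as deubiquitinases and 1 of 23 genes of Polycomb repressive complex 1. No event was listed for the 9 activating enzymes, 35 conjugating enzymes, 14 RBR ligases and 16 genes of the anaphase-promoting complex. The RING, HECT, deubiquitinase and Polycomb counts each include 1 of the 4 genes, which were chosen because they were listed. Among the genes classed as deubiquitinases is Pan2, which is known to lack that activity. Genes of the ubiquitin system that the list leaves out are not in these counts. Differences between classes were not tested. The genes of the list made up 8 of the 102 listed genes under CR (7.84%), 7 of 73 under IF (9.59%) and 6 of 67 after EX (8.96%). These counts include the 4 chosen genes, and the others alone numbered 4 under CR, 4 under IF and 5 after EX. Of the 524 genes, 1.53% had an event under CR, 1.34% under IF and 1.15% after EX. The share of all tested genes with an event is not known, so no excess can be read from these shares. Which genes of the list were expressed and tested is not known, so an absent gene says nothing of its splicing. Of the 4 genes, 3 were listed in more than 1 comparison, against none of the other 13 and 18 of all 221 listed genes; the choice of the 4 with these entries in view bears on that count.

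Under caloric restriction the other genes were Rnf146, Marchf7, Trim25 and Mysm1, with 3 lower and 1 higher. Rnf146, a RING ligase that recognises poly-ADP-ribosylated proteins, had an exon level of 0.215 in CR and 0.546 in AL. Marchf7, a membrane-associated RING-CH-type ligase, had an exon at 0.1045 in CR and 0.4245 in AL. Trim25, a RING ligase of the innate antiviral response, had an exon at 0.695 in CR and 0.930 in AL, a level from which it could be listed as lower only. A 3' splice site of Mysm1, a deubiquitinase of histone H2A and so of the same mark that complexes with Pcgf5 place, had a level of 0.931 in CR and 0.522 in AL.

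Intermittent fasting had 4 others, 2 lower and 2 higher. A retained intron of Pan2, a deadenylase subunit that has a ubiquitin protease fold but is known to lack that activity, had a level of 0.303 in IF and 0.666 in AL. One of Rnf138, a RING ligase of DNA repair, had a level of 0.0963 in IF and 0.382 in AL. A retained intron of Stub1, which encodes the chaperone-linked U-box ligase CHIP, was at 0.816 in IF and 0.611 in AL. Trim3, a RING ligase, had a 5' splice site at 0.634 in IF and 0.421 in AL.

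Exercise had 5 others, 3 lower and 2 higher. Each of the 5 had a SED level within 0.2 of an end of the scale and so could be listed in 1 direction only. Lower inclusion was listed for a 5' splice site of Zfp598, a ligase that marks collided ribosomes, with 0.482 in EX and 0.801 in SED. Exons of Traf6, a RING ligase of inflammatory receptor signalling, and of Fbxo17, an F-box protein, were also lower, with 0.545 in EX and 0.851 in SED for Traf6 and 0.527 in EX and 0.804 in SED for Fbxo17. Higher inclusion was listed for a retained intron of Herc6, a HECT-domain protein (0.641 in EX, 0.0947 in SED), and for a 5' splice site of Fbxw17, an F-box protein (0.601 in EX, 0.121 in SED).

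**Figure D4:**
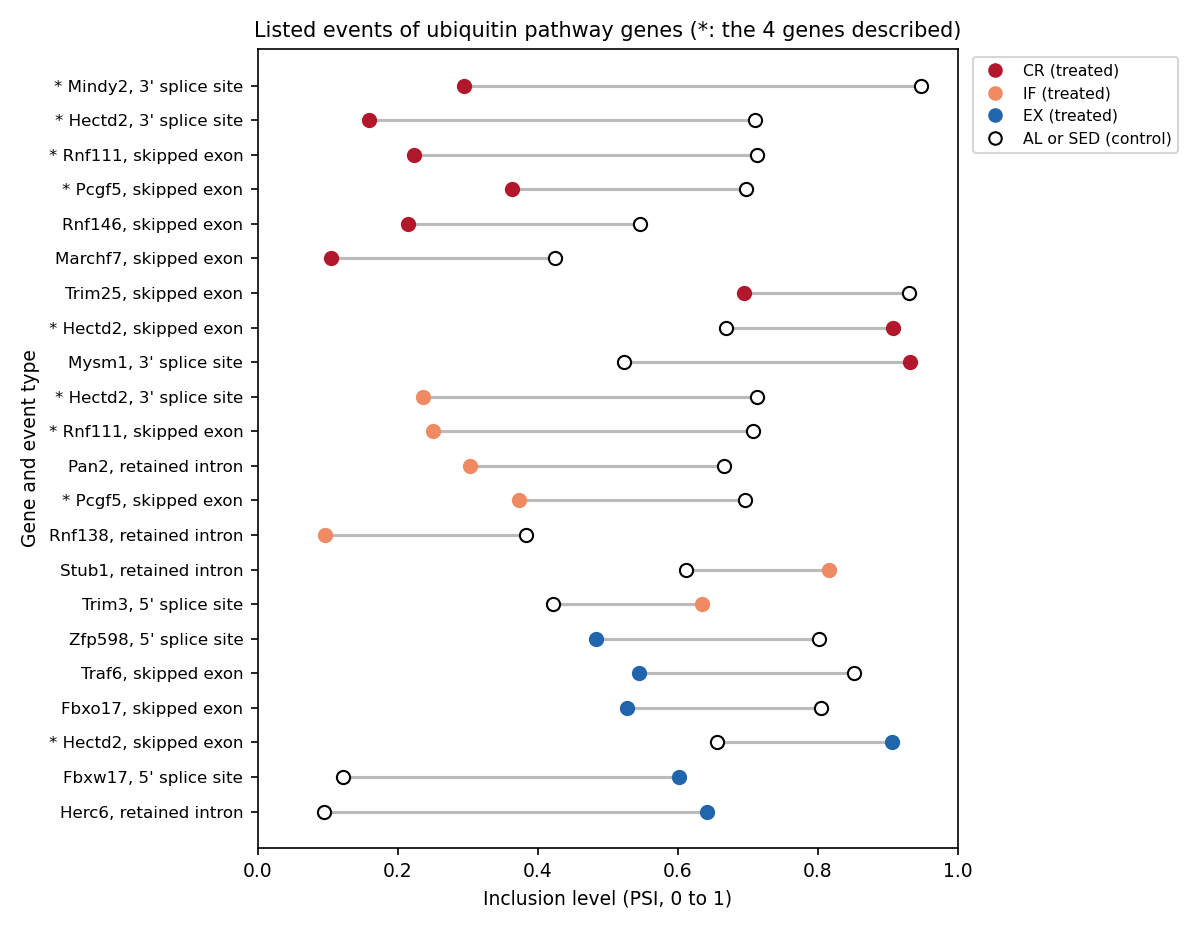
Inclusion level (PSI, from 0 to 1) of every listed event of the ubiquitin system genes, with the 4 genes described marked by an asterisk; filled points are the treated group (CR, IF or EX) and open points its control (AL or SED), each a single value without error. Of the events of the 13 other genes, 8 have the filled point on the lower side and 5 on the higher side. Over all listed events, 47.4% were lower in CR and 60.8% were lower in IF, and 48.6% were higher in EX. The EX events of the other genes and the Trim25 event could be listed in 1 direction only.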

How the data were processed

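RNA of skeletal muscle was extracted with a column kit and a DNase step and sent to a sequencing provider, per the labels' protocols. Splicing was analysed with Whippet and rMATS, per the labels' design text; which tool gave which value, and in which version, is not given in the sources used here. Positions are in mm10 (submitters' processing notes). A single table of called events was deposited by the authors, with 3 comparisons: inclusion levels as a fraction from 0 to 1, and, read as scores, a signed difference, a probability and a confidence class, per the file headers. How mice were combined is not stated. The deposited difference is control minus treated; treated minus control was computed here from the levels (largest gap 1e-05).

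The 4 genes were taken by symbol, every entry named. The other named genes are all those of the ubiquitin list with an entry. Genes and lists were chosen with earlier results of these data known. Groups came from the intervention label. No test was made. Counts were repeated with a probability of at least 0.95, a difference of at least 0.3, class 1 alone, and 1 event per gene. Gene spans came from RefSeq, in which 523 of the 524 list symbols and 219 of 221 listed symbols matched. Python 3.11.15, numpy 2.4.6, pandas 2.3.3 and matplotlib 3.10.9 were used.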

Additional observations from a re-analysis of the deposited data

How the results depend on the processing

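Stricter limits on the listed events could only remove entries. They could not change the level or direction of the rest, so they are no check of those values. With a probability of at least 0.95, 6 of the 9 entries of Hectd2, Rnf111, Mindy2 and Pcgf5 were left, with an absolute difference of at least 0.3, 7 of 9, and with confidence class 1 alone, 8 of 9. The count of entries for exercise was 0 under both of the first 2 limits, against 1 as listed, because the Hectd2 exon met neither. With 1 event per gene, that of the largest difference, the count of lower entries stayed at 4 in CR, 3 in IF and 0 in EX. Of the other genes of the ubiquitin list, 0 were left under caloric restriction and 0 under fasting at a probability of at least 0.95, against 4 in each as listed, and 1 was left under fasting at a difference of at least 0.3. After exercise 4 of the 5 others were left under each of these limits, and 3 of 4 were left under caloric restriction at a difference of at least 0.3. These limits were applied to the wider list after seeing the data. Leaving out single mice was not possible with 1 level per group, and depth is unknown. No paired analysis was possible because the list gives no values of single mice and no label pairs the mice.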

Other observations

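The 4 genes lie in 2 places in the genome. Pcgf5 and Hectd2 are consecutive protein-coding genes on chromosome 19, with 93155 nucleotides between their RefSeq spans, and their events are both on the plus strand. Rnf111 and Mindy2 lie on chromosome 9, 95173 nucleotides apart, both on the minus strand, with 1 protein-coding gene between them, Sltm, an RNA-binding protein related to the scaffold attachment factors, which had no listed event. Among the 214 listed protein-coding genes found in that annotation there were 5 pairs of direct neighbours and 5 pairs with 1 protein-coding gene between them, and the genes described here supply 1 pair of each kind. Under caloric restriction each of the 2 places held events with lower inclusion in both of its genes. The differences were -0.33 (Pcgf5) and -0.55 (Hectd2 splice site), and -0.49 (Rnf111) and -0.65 (Mindy2), all as CR minus AL. The Hectd2 exon was higher, at 0.24. Of all 114 events listed under CR, 47.4% were lower, and the Mindy2 event could be listed as lower only. The same values chose the genes, and how many neighbour pairs to expect was not computed. The positions were looked at after the values were seen.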
